A study of Mus musculus with 4 samples.

Results

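PRDM14 is a zinc finger protein of naive pluripotent cells and germ cells, and here the sea urchin protein was set against the mouse protein in the same kind of cell. The comparison used 2 of the 4 arrays of the series, with 1 array for each protein. All cells were mouse embryonic stem cells (mESCs) that lacked their own Prdm14 (Prdm14 KO). They were grown in medium with 2i and LIF, meaning inhibitors of MEK and GSK3 plus leukemia inhibitory factor, on a layer of STO mouse fibroblasts as feeder cells. The array titled sea urchin came from cells with sea urchin PRDM14, and the array titled mouse from cells with mouse PRDM14. An array of cells with an empty vector shows on which side of the pair the level without either protein lay. The fourth array, of cells with sea urchin PRDM14 and its partner sea urchin CBFA2T, is given for some genes. All arrays lay on strip 2 of a GeneAtlas run. The sources used here do not give the promoters that drive the introduced genes, whether a line was 1 clone, or the passage of the cultures.

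The compared features were the 23521 of 41345 probe sets that the platform annotation pairs with 1 gene symbol. They gave 22180 genes, of which 12042 reached a log2 value of 4.84, the median of those probe sets, on at least 1 of the 4 arrays. Each protein had a single array, so replicate spread is unknown, nothing was tested, and differences are described by size. All values are log2 RMA values, and a difference of 1 is 2-fold. RMA gives no detection call, and background pulls the fold of a dim gene toward 1.

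PRDM14 has a SET-related PR domain and a row of zinc fingers that bind DNA. In mouse embryonic stem cells it is known to hold down FGF receptor and de novo DNA methyltransferase genes with the help of CBFA2T2, a co-repressor of the ETO family, and it is needed for primordial germ cells. Sea urchins have a PRDM14 orthologue, so the comparison asks how far an orthologue from a distant animal leaves mouse cells in the state that the mouse protein gives.

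The 10 stem cell markers, among them Pou5f1, Sox2 and Nanog, were all above the filter value on both arrays, with a mean log2 value of 6.62 on the sea urchin array and 6.78 on the mouse array. Of 29 fibroblast genes, markers of the feeder layer, 20 reached the filter value on the sea urchin array and 21 on the mouse array. Markers of other cell types also reached it, with 15 and 13 of 20 for primitive endoderm, 11 and 12 of 14 for streak and mesoderm, 10 and 11 of 17 for trophoblast and 10 and 8 of 15 for neural cells, so these counts do not show that feeder RNA was present. The fibroblast means were 5.42 and 5.44. Col1a1, Col1a2, Col3a1, Thy1 and Fn1 were among the fibroblast genes above the filter value on both arrays, and Lum and Dcn among those below it on both. The part of feeder RNA in the results was not tested. In such bulk RNA, fewer cells of a type and less RNA per cell cannot be told apart. Prdm14 itself did not check the labels, with 5.77 on the sea urchin array, 5.57 on the mouse array and 5.71 on the empty vector array. The sources used here do not say where its probes lie relative to the deleted part, so "sea urchin array" and "mouse array" mean the arrays labelled with those proteins. The partner genes also lay close together: Cbfa2t2 differed by -0.09, Cbfa2t3 by 0.06 and Runx1t1 by -0.04 (all differences are sea urchin minus mouse on the log2 scale).

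Few genes separated the proteins by 2-fold. On the sea urchin array 6 of 12042 genes were at least 2-fold higher than on the mouse array (0.0498%), and 1 was at least 2-fold lower (0.0083%). At 1.5-fold, 36 genes were higher (0.299%) and 26 lower (0.216%). The SD of the differences over all genes was 0.16 and their median 0.01, and 81.5% of genes lay within 0.2 of 0. At the upper 2-fold line Gja1 (1.02) lay just inside and Lefty2 (0.93) just outside. On the lower side Bmp4 (-1.20) was inside, and the pseudogene 2210409E12Rik (-0.85) and Snora23 (-0.84) were the nearest outside.

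**Figure D1:**
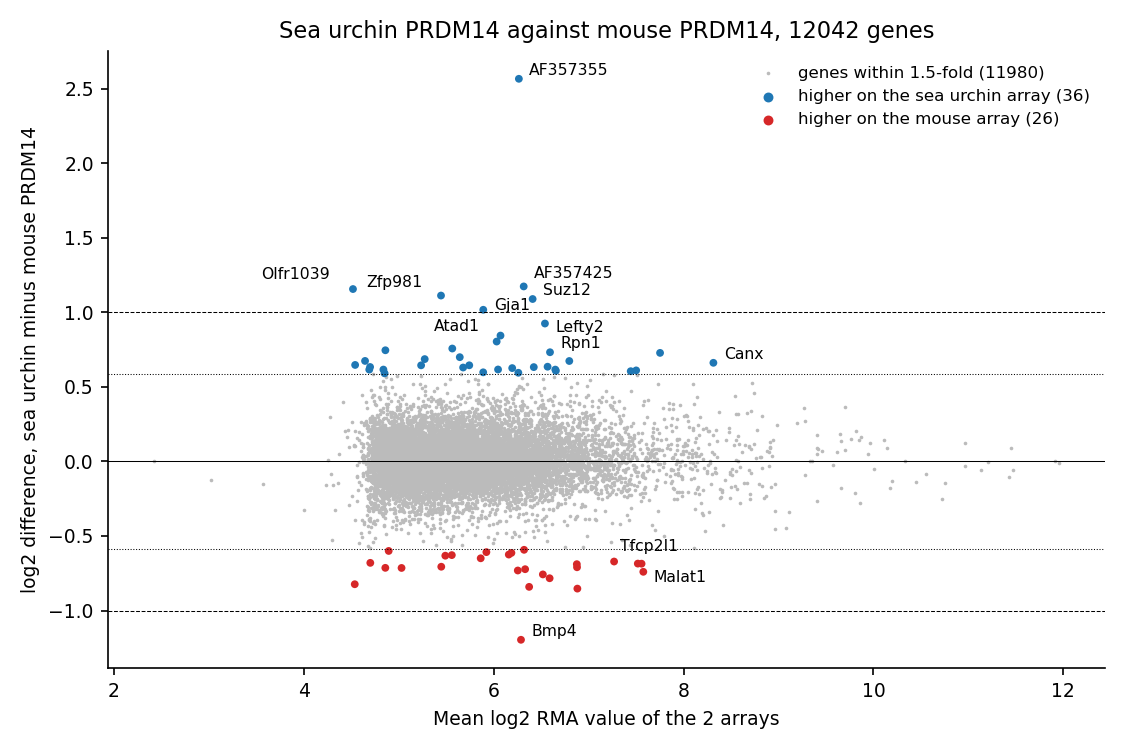
Difference of the sea urchin PRDM14 array from the mouse PRDM14 array (vertical axis, log2) against the mean log2 RMA value of both (horizontal axis), 1 point per gene for 12042 genes, 1 array per group. Dashed lines mark 2-fold and dotted lines 1.5-fold; 36 genes lie above the upper dotted line and 26 below the lower one, with AF357355 (2.57) and Bmp4 (-1.20) farthest out.

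The empty vector array gives the position of the level without either protein. Of the 36 genes higher on the sea urchin array, the empty vector value lay between both arrays in 32, nearer to the mouse value in 13 of these and nearer to the sea urchin value in 19. Of the 26 lower genes it lay between in 19, nearer to the mouse value in 10 and to the sea urchin value in 9. It lay outside the pair for 4 higher genes (Foxi3, Rian, Stt3a and Zfp981) and for 7 lower ones. Nearer can rest on a very small margin. Differences from the empty vector were 0.46 and -0.46 for Lefty2 and 0.30 and -0.31 for Rlim, both counted nearer to sea urchin (sea urchin array first). For Tnpo2, counted nearer to mouse, they were 0.33 and -0.32. Both differences from the empty vector share that array, so these counts describe positions and nothing more. Of the higher genes 8 passed the filter on 1 array of the pair and were below it on the other, as did 5 of the lower genes.

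The widest separation was in the Dlk1-Dio3 imprinted domain of chromosome 12, a cluster in which the maternal chromosome gives long noncoding RNAs and many small RNAs. AF357355, a small nucleolar RNA gene, was at 7.55 on the sea urchin array, 4.98 on the mouse array, 6.95 with the empty vector and 5.72 with sea urchin PRDM14 and CBFA2T. The difference of 2.57 is 5.93-fold, and the mouse array was the low one. AF357425, another small nucleolar RNA gene, was at 6.90, 5.73, 6.64 and 6.06 in the same order, a difference of 1.17. Rian, the long noncoding RNA gene in whose annotated span both lie, was at 5.15, 4.56, 5.56 and 4.51 and differed by 0.59, with the mouse value below the filter. Dlk1, a protein-coding gene of the paternal chromosome, differed by 0.41, and Meg3, the other long noncoding RNA gene kept here, by 0.04. Of 13 genes listed, 8 had a value and 5 were kept. Of these 5, 3 were past 1.5-fold higher, beside 0.299% of all genes, and none lower, with a median of 0.59. The list names AF357355 and AF357425 and was chosen with earlier results of these data known, so its count and median support nothing on their own. AF357426, AF357341 and Dio3 stayed under the filter. Small nucleolar RNA genes of this domain come in near-identical copies, and cross-matching between their probe sets cannot be told apart here.

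Gene values of the protein-coding genes past 2-fold followed different patterns. Gja1, a connexin gene of gap junctions, was at 6.40 on the sea urchin array, 5.38 on the mouse array, 6.39 with the empty vector and 5.46 with CBFA2T added. The sea urchin array thus kept the empty vector level and the mouse array was lower. Suz12, a core subunit gene of Polycomb repressive complex 2, was at 6.96, 5.87, 6.19 and 7.19 in that order, a difference of 1.09 in which the sea urchin array lay above the empty vector by 0.77 and the mouse array below it by -0.32. No other of the 11 members of that complex kept here reached 1.5-fold: Ezh1 differed by -0.24, Rbbp7 by 0.20, Eed by -0.14 and Ezh2 by -0.08. Olfr1039, an olfactory receptor gene, was dim, at 5.10 and 3.94.

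Zfp981 belongs to a cluster of zinc finger genes on chromosome 4 around Rex2. It was at 6.00 on the sea urchin array, 4.89 on the mouse array, 4.62 with the empty vector and 6.09 with CBFA2T added. Both arrays with sea urchin PRDM14 were high for it and the other 2 low. Rex2 was at 6.70, 6.33, 5.07 and 7.00 and Zfp992 at 6.19, 6.46, 5.38 and 6.56. These genes were above the empty vector on both arrays of the comparison and differed by only 0.37 and -0.27 between them. Of the 8 list members kept, Zfp983 (-0.05) lies on chromosome 17 and so outside the cluster. Over all 8 the median difference was 0.04, beside 0.01 for all genes. The medians from the empty vector were 0.38 on the sea urchin array and 0.35 on the mouse array.

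**Figure D2:**
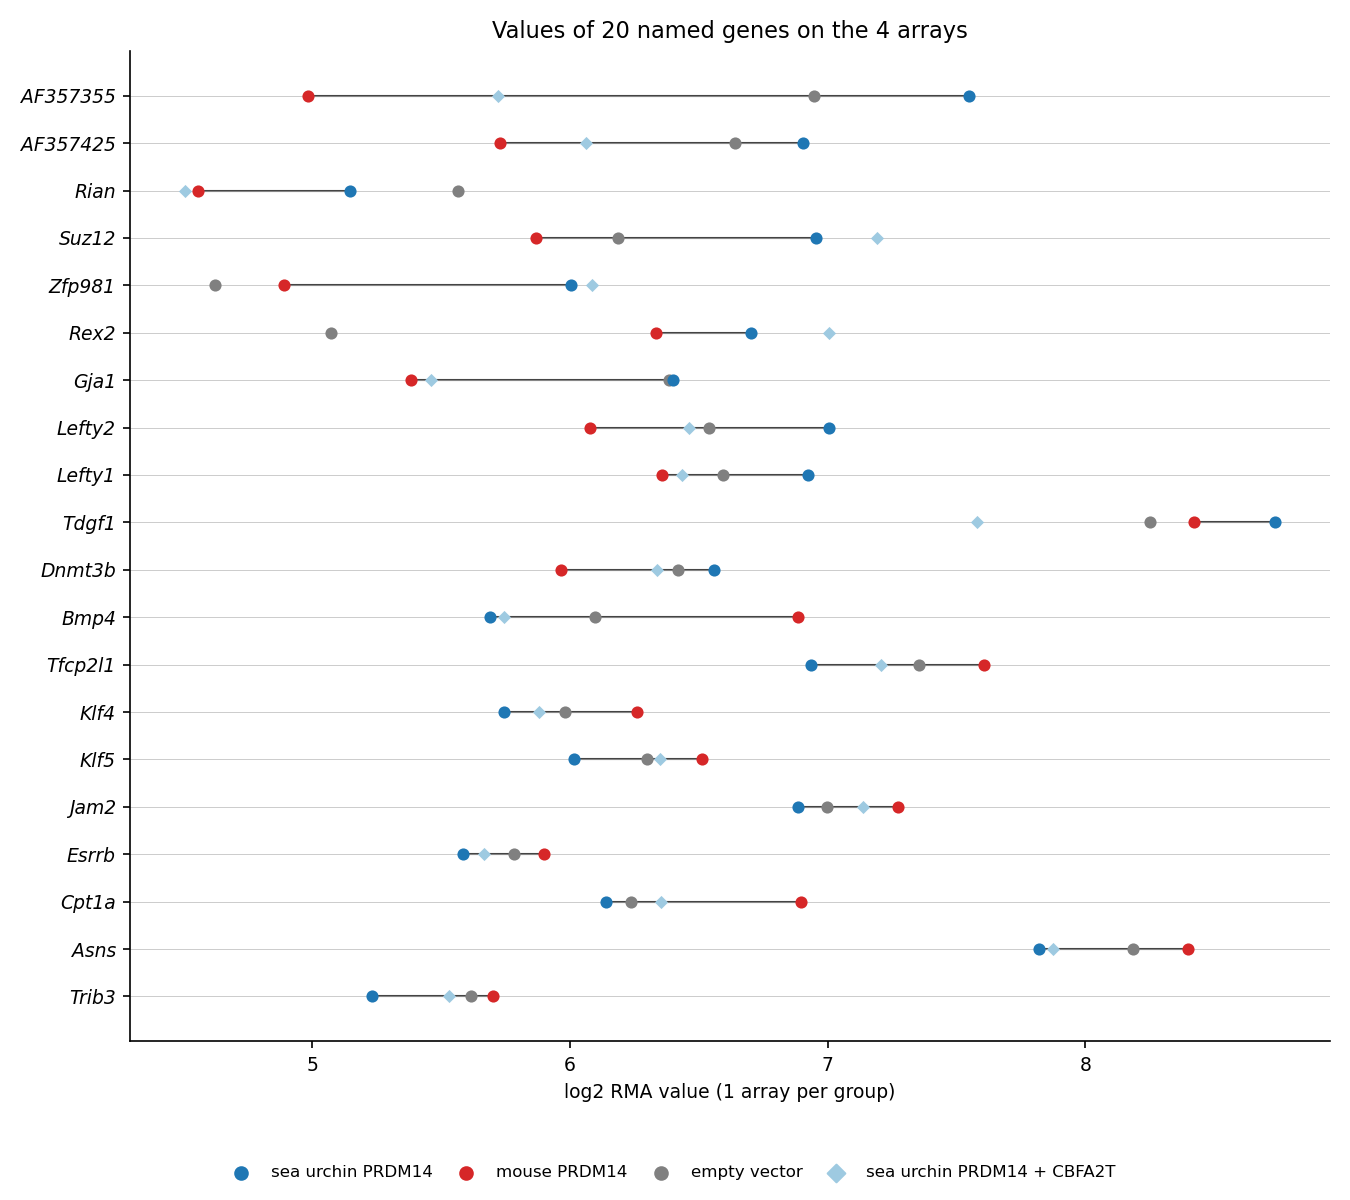
Log2 RMA values (horizontal axis) of 20 genes (rows) on the 4 arrays, 1 array per group; a line joins the sea urchin and mouse PRDM14 values of a gene. For Gja1 the empty vector (6.39) nearly coincides with the sea urchin array (6.40), whereas for Rex2 the empty vector (5.07) lies below both.

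Bmp4 was the 1 gene at least 2-fold lower on the sea urchin array. It encodes a secreted ligand of the BMP pathway, which signals through SMAD proteins to the Id genes and supports germ cell formation in the embryo. Its value was 5.69 on the sea urchin array, 6.89 on the mouse array, 6.10 with the empty vector and 5.74 with CBFA2T added. The mouse array alone was above the empty vector, and the difference of -1.20 is 2.29-fold. No other of the 13 pathway members kept reached 1.5-fold. The antagonist gene Nog differed by -0.20 and the receptor gene Bmpr1a by -0.17, while the target gene Id4 differed by 0.22 and Id3 by -0.08. The median of the 13 was -0.04.

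Nodal signalling, the other branch of this ligand family, works through the co-receptor encoded by Tdgf1 and is limited by the secreted inhibitors LEFTY1 and LEFTY2, whose genes are its own targets. Lefty2 was at 7.00 on the sea urchin array, 6.08 on the mouse array, 6.54 with the empty vector and 6.46 with CBFA2T added. Lefty1 was at 6.92, 6.36, 6.59 and 6.43, and Tdgf1 at 8.74, 8.42, 8.25 and 7.58. All 3 were higher on the sea urchin array than on the other 3 arrays, by 0.93, 0.56 and 0.32 against the mouse array. The ligand gene Nodal differed by 0.05 and the effector gene Foxh1 by 0.07. Of the 11 members kept, 8 were above 0, beside 53.4% of all genes. Lefty2 alone was past 1.5-fold, beside 0.299% of all genes higher, and the median was 0.07.

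The naive pluripotency genes lay lower on the sea urchin array. Of the 25 genes listed 21 were kept, and 16 of these were below 0 and 5 above, beside 53.4% above 0 of all genes. The median was -0.15, beside 0.01 for all genes. This direction was known from earlier results of these data. Tfcp2l1, a transcription factor gene that sustains self-renewal downstream of LIF, was the 1 member past 1.5-fold, beside 0.216% of all genes lower. It was at 6.93 on the sea urchin array, 7.60 on the mouse array, 7.35 with the empty vector and 7.21 with CBFA2T added. Klf4 was at 5.74, 6.26, 5.98 and 5.88 and Klf5 at 6.02, 6.51, 6.30 and 6.35. For these transcription factor genes the empty vector lay between the pair. Jam2 differed by -0.39, Esrrb by -0.31, Tbx3 by -0.30, Manba by -0.30, Nanog by -0.23 and Zfp42 by -0.15. The members above 0 were Dppa3 (0.20), Gbx2 (0.18), Pecam1 (0.13), Sall4 (0.02) and Fgf4 (0.00). The list's medians from the empty vector were -0.12 on the sea urchin array and 0.12 on the mouse array.

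Core pluripotency genes were not shifted one way. Pou5f1 differed by -0.08 and Sox2 by -0.02, and none of 15 members was past 1.5-fold. Their median was 0.02, with 8 above 0 and 7 below, beside 53.4% above 0 of all genes. Dppa4 (0.40), Epcam (0.36) and Utf1 (0.28) lay highest, and Fbxo15 (-0.37), Dppa5a (-0.33) and Lin28a (-0.25) lowest.

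LIF acts through its receptor and JAK kinases on STAT3, and Tfcp2l1 and Klf4 are among its targets, so this list overlaps the naive one. Of 13 members kept, 9 were below 0 and 4 above, beside 53.4% above 0 of all genes. The median was -0.13. It moved to -0.32 without Stat3 and Socs3, the 2 members on chromosome 11. The target genes Bcl3 and Pim3 differed by -0.48 and -0.37 (Pim1 by -0.36), and the kinase gene Jak2 by -0.32. The kinase gene Jak1 (0.19), the co-receptor gene Il6st (0.16) and the target Junb (0.17) went the other way, and Stat3 itself differed by -0.13. Pim1, Jak2, Jak1, Il6st and Junb were chosen after their values were seen.

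Genes of the later epiblast did not follow as a group. Dnmt3b, a de novo DNA methyltransferase gene, was at 6.56 on the sea urchin array, 5.96 on the mouse array, 6.42 with the empty vector and 6.34 with CBFA2T added, so the mouse array was the low one, by 0.59. Dnmt3a differed by 0.11. Other members of the formative and primed list lay near 0 (Otx2 0.10, Fgf5 -0.00, Pou3f1 -0.09, each chosen after its value was seen), and Apela (-0.39) and Sfrp1 (-0.32) were lower. The median of 17 members was 0.05. Of the FGF receptor genes, Fgfr1 was at 6.49, 6.11, 6.39 and 6.65, a difference of 0.38. Fgfr4, described after its value was seen, differed by -0.06, and Fgfr2 and Fgfr3 stayed under the filter. The phosphatase gene Ptpn11 differed by 0.44, at 5.01 on the sea urchin array. It was below the filter value on the mouse array (4.57) and with the empty vector (4.63). The median of 23 FGF and ERK genes was 0.00. In the DNA methylation list Uhrf1 and Zfp57 (-0.24 each) and Tet2 (-0.19) lay opposite to Dnmt3b. Of its 11 members kept, 8 were below 0 and 3 above, beside 53.4% above 0 of all genes, with a median of -0.06.

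Germ cell genes showed no large difference. Of 26 listed genes 14 were kept, 8 above 0 and 6 below, beside 53.4% above 0 of all genes. Their median was 0.04, and none was past 1.5-fold. Prdm1 (0.20), Tfap2c (0.19) and Dppa3 (0.20), the genes around germ cell specification, were slightly higher and Kit (-0.26) lower. Of the 16 members of the 2-cell-like list that were kept, 8 lay below the filter value on both arrays of the comparison and were kept through the CBFA2T array alone, so no median is read from this list. Elobl (-0.60) was its 1 member past 1.5-fold, at 4.60 on the sea urchin array, 5.20 on the mouse array, 5.29 with the empty vector and 6.02 with CBFA2T added. Its neighbour on chromosome 11, 2210409E12Rik, was at 6.46, 7.31, 7.17 and 8.14, and here too the sea urchin array was the lowest and the CBFA2T array the highest. Gm2022, above the filter value on all arrays, differed by -0.42.

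**Figure D3:**
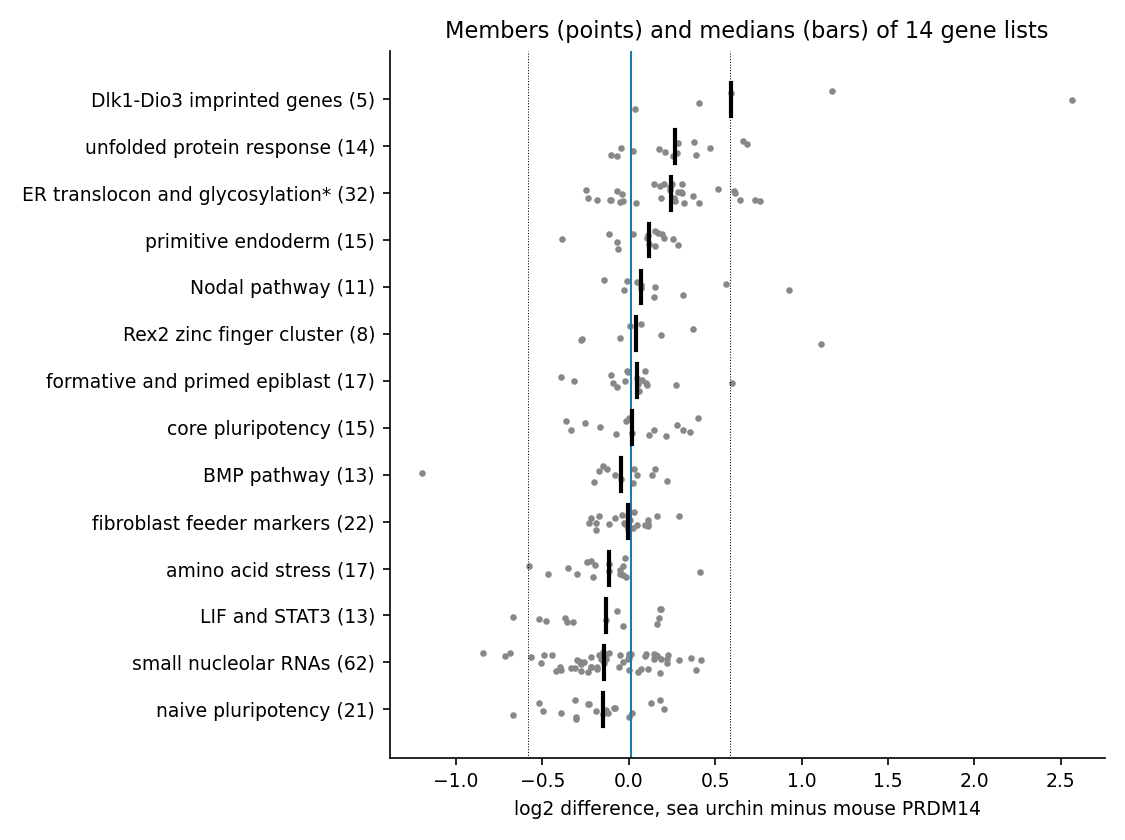
Differences of the members kept in 14 gene lists (points; number of members in brackets; vertical jitter only separates points) and their medians (black bars) on the log2 scale, sea urchin minus mouse PRDM14, 1 array per group. The blue line is the median of all 12042 genes (0.01), dotted lines mark 1.5-fold and the asterisk a list added after the values were seen; medians run from -0.15 for naive pluripotency to 0.59 for the Dlk1-Dio3 genes.

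Most genes of the unfolded protein response list, which serve protein folding in the endoplasmic reticulum, lay higher on the sea urchin array. Secreted and membrane proteins enter this compartment through the SEC61 channel, receive sugar chains from the oligosaccharyltransferase and are folded by chaperones. When folding falls behind, the factors ATF6 and XBP1 turn on chaperone genes through the endoplasmic reticulum stress element, a promoter motif read as CCAAT, then 9 bases of any kind, then CCACG. Of the 14 genes kept, 11 were above 0 and 3 below, beside 53.4% above 0 of all genes, and 2 were past 1.5-fold against 0.299% of all genes. The median was 0.27, with 0.29 from the empty vector on the sea urchin array and -0.03 on the mouse array.

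Exact matches to this element on either strand were sought in RefSeq promoters of build GRCm38.p6, each reaching from 250 bases before to 50 after a gene's start. The motif was chosen after the values were seen. It occurred in 39 of 32851 promoters (0.119%) and in 14 of the 9344 genes kept that have a promoter in the table. Of the 12 list members with a promoter, 7 held it. The list holds chaperone genes, which this element is known to turn on, so that share supports nothing on its own. The matches are shown because all 7 genes were above 0. Each is written 5′ to 3′ on the strand that carries the motif, with the fixed letters in capitals.
Dnajc3: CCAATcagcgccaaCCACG
Canx: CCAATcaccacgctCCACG
Calr: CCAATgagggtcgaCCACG
Hsp90b1 (far match): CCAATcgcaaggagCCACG
Hsp90b1 (near match): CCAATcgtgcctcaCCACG
Creld2: CCAATtgaggctcgCCACG
Hspa5: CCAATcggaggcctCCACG
Pdia6: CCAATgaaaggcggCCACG

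The whole promoters of Dnajc3 and Canx, the list members past 1.5-fold, and of Hsp90b1, which held 2 matches, follow with the matched letters in capitals. They lie at chr14:118937682-118937981 on the plus strand (Dnajc3), chr11:50325624-50325923 on the minus strand (Canx) and chr10:86705395-86705694 on the minus strand (Hsp90b1), and each is written in the direction of its gene. The match begins 105 bases upstream of the start in Dnajc3, 145 in Canx, and 212 and 107 in Hsp90b1, where the nearer one lies on the opposite strand.
Dnajc3: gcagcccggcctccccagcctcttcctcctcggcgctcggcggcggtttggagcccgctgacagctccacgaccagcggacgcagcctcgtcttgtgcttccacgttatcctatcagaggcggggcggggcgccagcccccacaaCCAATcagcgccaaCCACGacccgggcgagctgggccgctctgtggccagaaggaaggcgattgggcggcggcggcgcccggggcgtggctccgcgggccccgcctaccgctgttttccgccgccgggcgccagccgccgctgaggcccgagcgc
Canx: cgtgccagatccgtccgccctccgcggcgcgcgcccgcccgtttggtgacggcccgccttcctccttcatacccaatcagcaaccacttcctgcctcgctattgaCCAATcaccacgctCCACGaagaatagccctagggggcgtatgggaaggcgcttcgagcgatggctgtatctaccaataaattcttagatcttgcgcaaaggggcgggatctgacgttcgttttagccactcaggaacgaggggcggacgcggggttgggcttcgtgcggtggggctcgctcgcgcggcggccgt
Hsp90b1: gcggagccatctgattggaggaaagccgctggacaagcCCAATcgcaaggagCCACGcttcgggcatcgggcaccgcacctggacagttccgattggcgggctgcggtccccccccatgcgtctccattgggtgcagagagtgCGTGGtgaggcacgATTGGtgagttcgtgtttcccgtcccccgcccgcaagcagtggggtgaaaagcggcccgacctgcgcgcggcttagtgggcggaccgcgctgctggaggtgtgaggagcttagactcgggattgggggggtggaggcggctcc

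Dnajc3, which encodes a co-chaperone that restrains the kinase PERK, was at 5.62 on the sea urchin array, 4.93 on the mouse array, 5.04 with the empty vector and 5.27 with CBFA2T added. Canx, the gene of the glycoprotein chaperone calnexin, was at 8.65, 7.98, 8.09 and 8.58. Both were above the empty vector on the sea urchin array and near it on the mouse array. The other genes with the element differed by 0.39 (Calr, calreticulin), 0.38 (Hsp90b1, the chaperone GRP94), 0.29 (Creld2), 0.28 (Hspa5, the chaperone BiP) and 0.26 (Pdia6, a disulphide isomerase). All 7 lay between 0.26 and 0.69, with a median of 0.38. The 5 list members whose promoter has no exact match ran from -0.10 (Sdf2l1) to 0.47 (Xbp1), with Ern1 and Herpud1 at -0.07 and -0.04 and Sel1l at 0.21. A match was not enough to place a gene: the 7 other genes kept with one, none of them on the list, ran from -0.24 (Zfp57) to 0.08 (Pan2), with Syvn1 at 0.07. Among them was Alg12, whose promoter shares the Creld2 match (the genes run in opposite directions), at -0.07. Calr, Hsp90b1, Creld2, Pdia6, Sdf2l1, Ern1, Herpud1, Sel1l, Zfp57, Pan2, Syvn1 and Alg12 are described here after their values were seen. A match is a description of letters and not a sign of binding.

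A list of channel and glycosylation genes was examined beside it, and 0 of 25 promoters in that list held an exact match. This list of 37 genes was put together after the large differences had been seen, and supports nothing on its own. Of 32 members kept, 23 were above 0 and 9 below, beside 53.4% above 0 of all genes. Past 1.5-fold, 5 were higher, beside 0.299% of all genes, and none lower, and the median was 0.25. Rpn1, an oligosaccharyltransferase subunit gene, was at 6.96 on the sea urchin array, 6.23 on the mouse array, 6.30 with the empty vector and 6.42 with CBFA2T added. Sec61g, a channel subunit gene, was at 5.94, 5.19, 5.42 and 5.65, and Stt3a, the gene of a catalytic subunit, at 7.81, 7.20, 7.17 and 7.45. Fkbp11, a folding enzyme gene, was at 5.56, 4.91, 4.92 and 4.92. For each of these the sea urchin array was the highest of the 4. Ccdc47 differed by 0.62, from 4.38 on the mouse array, and Sec61a1 by 0.52. Subunit genes of the same complexes were not all higher: Dad1 differed by -0.07, Ost4 by -0.18, Sec61a2 by -0.23 and Krtcap2 by -0.25.

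**Figure D4:**
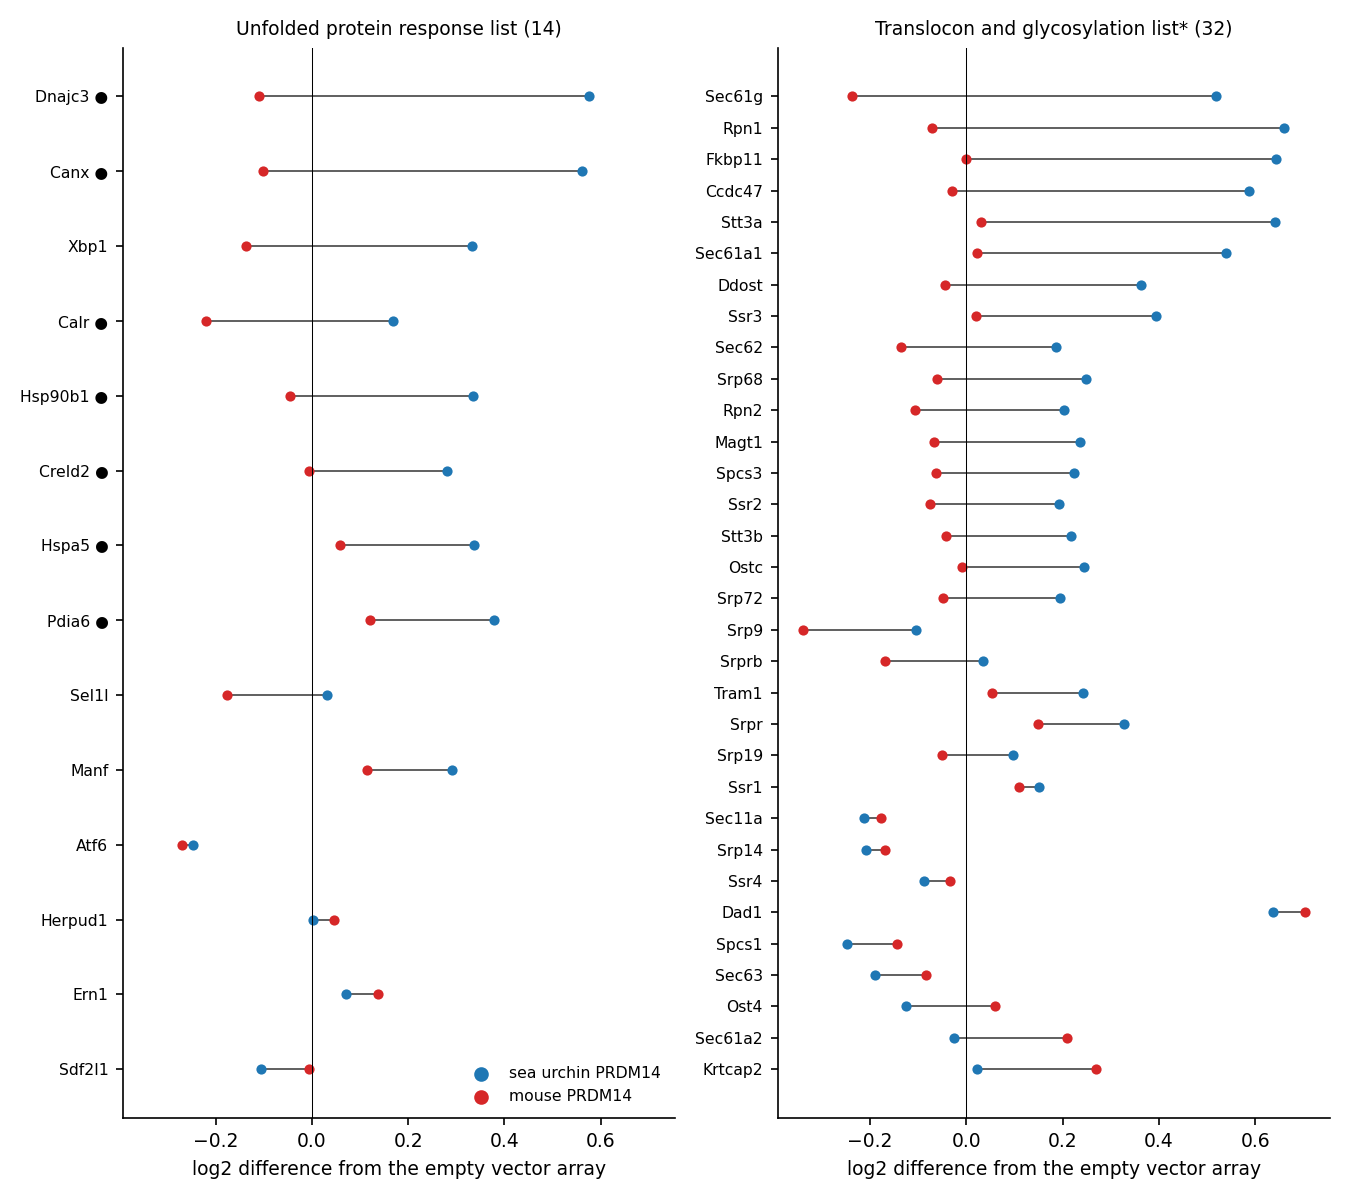
Log2 difference from the empty vector array (horizontal axis) of the sea urchin PRDM14 array (blue) and the mouse PRDM14 array (red) for 14 unfolded protein response genes (left) and 32 translocon and glycosylation genes (right; the asterisk marks a list added after the values were seen), 1 array per group. Black dots after a name mark the 7 genes with an exact endoplasmic reticulum stress element in the promoter; for Dnajc3 and Canx the sea urchin array lies to the right and the mouse array slightly to the left of 0.

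Genes of the amino acid branch of the stress response lay the other way. ATF4 controls these genes for amino acid synthesis and transport. Of 17 kept, 16 were below 0 and 1 above, beside 53.4% above 0 of all genes. The median was -0.12, with -0.14 from the empty vector on the sea urchin array and 0.08 on the mouse array. None was past 1.5-fold. Asns, the asparagine synthetase gene, was just outside that line (-0.58), at 7.82 on the sea urchin array, 8.40 on the mouse array, 8.19 with the empty vector and 7.87 with CBFA2T added. Trib3, a pseudokinase gene, differed by -0.47 and Psat1, of serine synthesis, by -0.35. Phgdh, the first enzyme of serine synthesis, was the member above 0 (0.41), at 5.64 and 5.22, with the empty vector at 5.81.

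The other genes past 1.5-fold were spread over many functions. Lower on the sea urchin array were Cpt1a, the carnitine transferase gene of fatty acid oxidation, at 6.14 against 6.90 with 6.24 on the empty vector array, and Septin1, a cytoskeletal gene, at 6.20 against 6.98 with 6.32. The nuclear long noncoding RNA gene Malat1 was at 7.21 against 7.95 with 7.36, and Stmn2, a microtubule regulator gene of neurons, at 7.18 against 7.86 with 7.35. For these 4 the mouse array was the one away from the empty vector. For Rpp25 (6.53 against 7.22, empty vector 7.26), a ribonuclease P subunit gene, and Ccnd3 (6.02 against 6.62, empty vector 6.59), a cyclin gene, the sea urchin array was. The imprinted gene Plagl1 was at 5.18 against 5.81, with 6.04 on the empty vector array. Higher on the sea urchin array were Atad1 (0.84), an AAA ATPase gene of mitochondria, Rrp7a (0.80), of ribosome synthesis, and Rabggtb (0.75), of Rab protein prenylation. For Rabggtb the empty vector lay nearer to the sea urchin array, and the mouse value (4.49) was below the filter. For the other genes it lay almost midway. Sea urchin and mouse differences from it were 0.40 and -0.44 for Atad1, and 0.37 and -0.44 for Rrp7a. The ephrin receptor gene Epha2 differed by 0.63 and the integrin gene Itgb1, of the same cell contact list as Gja1, by 0.54, whereas Jam2 differed by -0.39, and the median of 19 cell contact genes was -0.00. The remaining higher genes lay between 0.60 and 0.70 and were Maco1, Zp3, Tnpo2, Foxi3, Laptm4b, Enpp3, Lgr4, Mfsd1, Ankrd66, Slc20a2, Rlim, Ube2z and BC049762. Among them Lgr4 is a receptor gene that strengthens Wnt signals, and Rlim is a ubiquitin ligase gene of the X chromosome. The remaining lower genes lay between -0.82 and -0.61 and were Defa34, Atp1b1, Slain1, Gm5797, Gm5528, Erf, Fblim1 and Nynrin. Atp1b1 is a sodium pump subunit gene, and Erf encodes a repressor that ERK signalling controls. Of these, Zp3, Ankrd66, Laptm4b, Defa34 and Gm5797 were dim, at no more than 5.15 on the higher array of the pair. Plagl1, Malat1 and Rrp7a have another, dimmer probe set, and with the mean of both their differences were -0.37, -0.53 and 0.47. For Slain1, Nynrin and Skp1 the dimmer probe set differed the other way (0.04, 0.14 and -0.08), and with the mean their differences were -0.33, -0.23 and 0.30. None of these 6 was past 1.5-fold with the mean.

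Small nucleolar, Cajal body and miRNA genes, taken by symbol from all chromosomes, mostly lay lower on the sea urchin array. Of 62 small nucleolar and Cajal body RNA genes kept, 39 were below 0 and 23 above, beside 53.4% above 0 of all genes, with a median of -0.14. Both proteins' arrays were above the empty vector for this list, by medians of 0.17 on the sea urchin array and 0.29 on the mouse array. Snora23 was at 5.95 on the sea urchin array, 6.80 on the mouse array, 5.37 with the empty vector and 5.99 with CBFA2T added, and Scarna6 at 7.22, 7.90, 7.05 and 6.64. Snord83b was at 4.50, 5.22, 5.20 and 4.51, low on both arrays with sea urchin PRDM14. These 3 were past 1.5-fold lower, beside 0.216% of all genes, and none of the list was higher. Their direction is opposite to that of AF357355 and AF357425.

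Of 143 miRNA genes kept, 4 were past 1.5-fold lower (2.80%, beside 0.216% of all genes) and 0 higher, with a median of -0.07. The arrays were hybridised with labelled total RNA, and whether precursor or mature RNA gave these signals was not tested. Mir761 differed by -0.73, Mir339 by -0.71, Mir669a-3 by -0.71 and Mir3475 by -0.63, all chosen after their values were seen. The mature sequences of the 3 that matched the RefSeq table (GRCm38.p6) are printed 5′ to 3′ because a shared seed (bases 2 to 8, in capitals) would make them 1 family, and the 5 seeds are all different.
mmu-miR-761: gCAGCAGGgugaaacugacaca
mmu-miR-339-5p: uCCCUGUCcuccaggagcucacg
mmu-miR-339-3p: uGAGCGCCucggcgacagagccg
mmu-miR-3475-5p: aAAUCAUGuacccccacagagg
mmu-miR-3475-3p: uCUGGAGGcacaugguuugaa

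Genes of chromosome 11 lay higher on the sea urchin array along the whole chromosome. Over 1069 genes the median was 0.06 and 66.6% were above 0, beside 53.4% of all genes. In 10 groups of neighbouring genes in chromosome order every median was above 0, from 0.04 to 0.11, with 62.6% to 72.0% of genes above 0. Chromosome 18 came next (0.04 over 269 genes), and chromosome 19 was lowest (-0.02 over 424). On chromosome 11 the median difference from the empty vector was 0.06 on the sea urchin array and -0.004 on the mouse array. The CBFA2T array minus the mouse array had a median of 0.07 there and 0.08 on chromosome 16. Chromosome 11 held 8 of the 36 genes past 1.5-fold higher, which is 0.748% of its genes beside 0.299% of all genes. Among the 8 were Suz12, Canx, Sec61g, Ccdc47, Skp1 (0.67) and Rpl23a (0.73). It also held 2 of the 26 lower ones. The unfolded protein response list without its 3 chromosome 11 members had a median of 0.26, and the translocon list without its 3 had 0.24. The chromosome's part in the difference of Suz12 was not tested. The 10 genes of the mitochondrial genome differed by a median of -0.01, with both arrays above the empty vector (0.17 and 0.19).

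**Figure D5:**
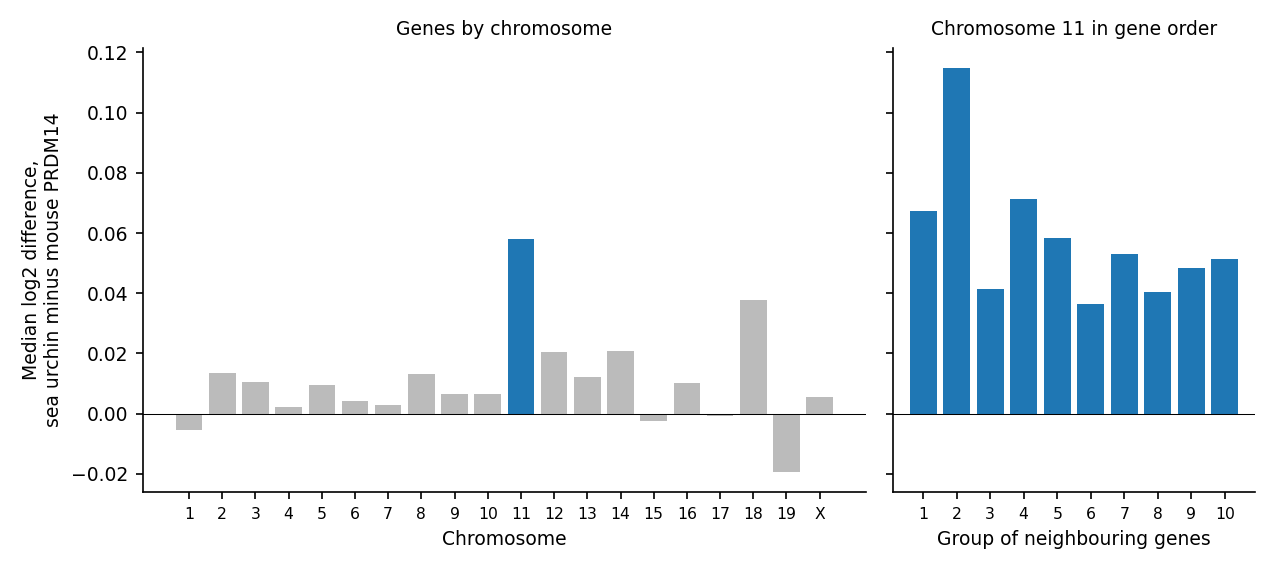
Median log2 difference, sea urchin minus mouse PRDM14 (vertical axis), of the genes of each chromosome (left) and of 10 groups of 106 or 107 neighbouring genes of chromosome 11 (right), 1 array per group. Chromosome 11 has a median of 0.06, and each of its 10 groups lies above 0.

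The remaining lists had medians between -0.10 and 0.13, and their counts stand beside 53.4% above 0 of all genes. Primitive endoderm genes had a median of 0.12 (11 of 15 above 0), with Lamb1 at 0.28 and Sparc, which fibroblasts make too, at -0.39. Trophoblast genes had a median of -0.10 (9 of 11 below 0), with Ets2 at -0.45. The medians were 0.04 for the Wnt pathway, 0.01 for gastrulation genes, 0.01 for neural genes, in which Olig2 (0.67, dim) stood out, and -0.00 for fibroblast markers. Cholesterol synthesis genes had a median of -0.07, although Cyp51 differed by 0.47, and glycolysis and hypoxia genes one of 0.02. For p53 targets (Pmaip1 0.56), cell cycle genes, respiratory chain genes and housekeeping genes it was 0.01, -0.00, 0.01 and -0.03. Ribosomal protein genes had 0.07 over 56 genes, and histone genes, taken by symbol with H1f7, H1f8 and H1f10 among them, 0.03 over 13. PRDM14 and its partners had 0.13 over 9, the interferon list 0.13 over 7, and imprinted genes outside chromosome 12 -0.02.

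GTCTCTA, a core of the known PRDM14 motif, was sought on either strand of the same promoters. It occurred in 1 of 28 promoters of genes past 1.5-fold higher (Fkbp11), in 0 of 14 of the lower genes and in 3.32% of the 9344 promoters of all genes kept. With so few promoters at that share, the search could not separate the higher and lower genes.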

How the data were processed

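Total RNA of 4 cell cultures, 1 array each, was measured on GeneAtlas arrays, per the labels. The authors deposited log2 values, which per the submitters' processing notes come from RMA. The sources used here do not give its version, which arrays went into it or a genome build. RMA makes array distributions equal (medians 4.54 to 4.55), so a shift of most genes on 1 array would not show.

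Of 41345 probe sets, 23521 had 1 gene in the platform annotation, 1814 several and 16010 none. For each gene the probe set of highest mean was taken, and was kept where any array reached 4.84. Chromosomes and gene order came from RefSeq (GRCm38.p6), which held 12022 of the 12042 genes kept. No test was made. A gene is called higher or lower past 2-fold, or 1.5-fold where stated. The steps were checked on simulated data.

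Named were the PRDM14 and CBFA2T genes, all genes past 2-fold, up to 20 highest and up to 20 lowest differences past 1.5-fold (20 and 16 were found) without predicted, small RNA and receptor symbols, and for each list the members past 1.5-fold and up to 4 with the largest difference (any member of the naive, core, germ cell and Rex2 lists). The remaining genes past 1.5-fold were also listed by name. Nodal, Foxh1, Id3, Ezh2, Dnmt3a, Meg3, Hspa5, Sec61a1, Dad1, Ost4, Sec61a2 and Krtcap2 were among members given outside this rule, with values known. The comparison, members and lists were chosen with earlier results of these data known. In the ribosomal list the Rps6k kinase genes were left out after the values were seen. Alternatives were a 1.5-fold threshold, other filters, cyclic loess, other treatments of probe sets, and leaving out symbols or chromosome 11. The tools were R 4.3.3 with limma 3.58.1 for cyclic loess, and Python 3.11.15 with numpy 2.4.6, pandas 2.3.3 and matplotlib 3.10.9.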

Additional observations from a re-analysis of the deposited data

How the results depend on the processing

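No paired analysis was possible because each group has 1 array. With 1 array per group the precision is unknown, and values near 4.84 lie close to background. The counts of 6 higher and 1 lower genes became 36 and 26 at 1.5-fold. With no filter 2 genes were lower. In the other alternatives both counts stayed within 1.5 times. The LIF and STAT3 median of -0.13 was -0.36 with the stricter filter (5.65) and -0.32 without chromosome 11. The Dlk1-Dio3 median of 0.59 was 0.32 without a filter and 1.17 under the stricter one, where fewer members remained. The Rex2 cluster median of 0.04 was 0.19 with the stricter filter. In all, that filter moved 5 list medians, and not all of them are given here. The interferon median of 0.13 turned to -0.026 with no filter. The filters change which members are kept, and no other cause was tested. No other list median turned its sign when it was at least 0.1 in size, and none of the chromosome medians moved by 0.1 in any alternative.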

Other observations

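Probe sets outside the comparison also differed between the arrays. Of 5567 probe sets past the filter with no gene in the platform annotation, 54 were at least 2-fold higher on the sea urchin array and 54 lower (1.94% together, beside 0.0581% of the genes kept), reaching 2.54 and -2.06 on the log2 scale. At 1.5-fold 218 were higher and 249 lower. Genes were counted by 1 chosen probe set each and these probe sets singly, so the shares are not alike. Of 893 with several genes, 0 were past 2-fold, 4 were past 1.5-fold higher and 5 lower.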
